A study of Rattus norvegicus with 3 samples.

Results

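The genes described here encode the precursors of 10 spinal neuropeptides: NPY, PENK, PDYN, TAC1, CALCA, CALCB, SST, CCK, GAL and ADCYAP1. They were found by their symbols in a table of 12758 gene symbols, and 10 of the 10 had an entry. RNA had been sequenced from the supernatant left after spinal cord of female Sprague Dawley rats, 3 months old, was digested with a cold active protease and its cells were spun down. The No-SCI group had a laminectomy at T9 alone, the SCI group a laminectomy and a contusion, and about 2 mm of cord just rostral to the lesion was taken at T8 after 24 h. By the labels, 2 libraries are No-SCI and 1 is SCI, while the methods of the study speak of 2 animals per condition.

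Each value is the authors' FPKM (fragments sequenced from a transcript, relative to its length and to the size of the library) for a whole group, 1 for No-SCI and 1 for SCI. Neither single libraries nor read counts are given, so the spread between animals and the number of reads behind each value are unknown. No difference was tested here, and the results of the authors' own test were not used. Higher and lower mean only that one group value exceeded the other. Why a gene has no entry is not stated, so a missing entry does not show that its RNA was absent. The oligodendrocyte marker MBP, for example, had none, while MOBP, another such marker, had 44200 FPKM in No-SCI. Log2 ratios are those of the SCI over the No-SCI value, with no pseudocount, and a ratio of at least 2-fold in size was counted as a large difference. In tissue fractions of this kind, fewer cells or axons of a type and less RNA in each cannot be told apart.

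Neuropeptides are cut from longer precursor proteins, stored in dense-core vesicles and released onto G protein-coupled receptors. In the spinal cord, enkephalin, dynorphin, somatostatin and NPY are made largely by interneurons of the dorsal horn and dampen or tune sensory input. Calcitonin gene-related peptide (CGRP) and PACAP reach the dorsal horn mainly in sensory axons whose cell bodies lie in the dorsal root ganglia, while substance P and galanin are made by both sensory and spinal neurons. Local processes and axons of distant neurons are among the possible sources of RNA for these peptides in the supernatant. Which sources contributed was not tested.

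Many neuropeptide genes carry a cAMP response element in their promoter, a motif first described in the gene of somatostatin. The 300 bases around the RefSeq start site (assembly GRCr8, not the assembly of the FPKM values) were at hand for 7 of the 10 genes: NPY, PDYN, TAC1, CALCA, SST, GAL and ADCYAP1. The full motif TGACGTCA, searched on both strands, was found in 1 of the 7, SST, and in 1.83% of all 33469 promoters. Its core TGACG, which the full motif contains, was found on either strand in 4 of the 7 and in 21.2% of all promoters, and this search was added after the first. The 30 bases around the match are shown for these genes because they are where members share letters, with the match in capitals (CGTCA is the core on the other strand).
SST: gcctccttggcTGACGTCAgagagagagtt
GAL: gcgctgagcgggTGACGcggcagctcccac
CALCA: gaagcaccgaggTGACGcaatctgtctggg
TAC1: tccctaaaattgCGTCAtttcgaacccaat
These lie at chr11:90461537-90461566 (+) for SST, chr1:210084618-210084647 (-) for GAL, chr1:178317624-178317653 (-) for CALCA and chr4:36645365-36645394 (+) for TAC1. The match begins 63 bases before the annotated start site in GAL, 112 in CALCA and 206 in TAC1, and at base 3 after it in SST. No match was found in the windows of NPY, PDYN and ADCYAP1. A match describes these letters and is no evidence that a factor bound there. SST was lower and GAL, CALCA and TAC1 were higher after SCI, as given below.

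None of the 10 precursor genes differed by 2-fold or more between the groups, while 20.0% of all 12758 symbols did, 7.93% higher and 12.1% lower after SCI. Of the 10 genes, 5 were lower in SCI (NPY, PENK, PDYN, SST and ADCYAP1) and 5 were higher (TAC1, CALCA, CALCB, CCK and GAL). At the 1.3-fold minimum of the study, without its test, 7 of the 10 differed, 4 lower and 3 higher, against 60.4% of all symbols, 35.7% lower and 24.6% higher. Their log2 ratios ran from −0.86 for ADCYAP1 to 0.80 for CALCB. Each of the 10 lay between the 5th and 95th percentiles of the log2 ratios of genes in its own decile of level. The median log2 ratio of the precursor genes was −0.02, beside −0.12 over all symbols, and its sign flipped to 0.10 when the median of all symbols was centred at 0.

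The levels spanned a wide range. NPY, with 303 FPKM in No-SCI, stood 115-fold above CALCB, with 2.64 FPKM. After SCI the highest and lowest genes, NPY and PDYN, were 55.8-fold apart. In No-SCI the order from the highest was NPY, TAC1, PENK, SST, GAL, CCK, ADCYAP1, CALCA, PDYN and CALCB. After SCI it was NPY, TAC1, GAL, PENK, SST, CCK, CALCA, ADCYAP1, CALCB and PDYN, so GAL passed PENK and SST, CALCA passed ADCYAP1, and CALCB passed PDYN. No neighbours in either order can be said to differ beyond their spread, which is unknown. In No-SCI, 4 of the 10 genes were above the median level of all symbols (17.2 FPKM), and after SCI 6 were above a median of 15.6 FPKM.

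**Figure D1:**
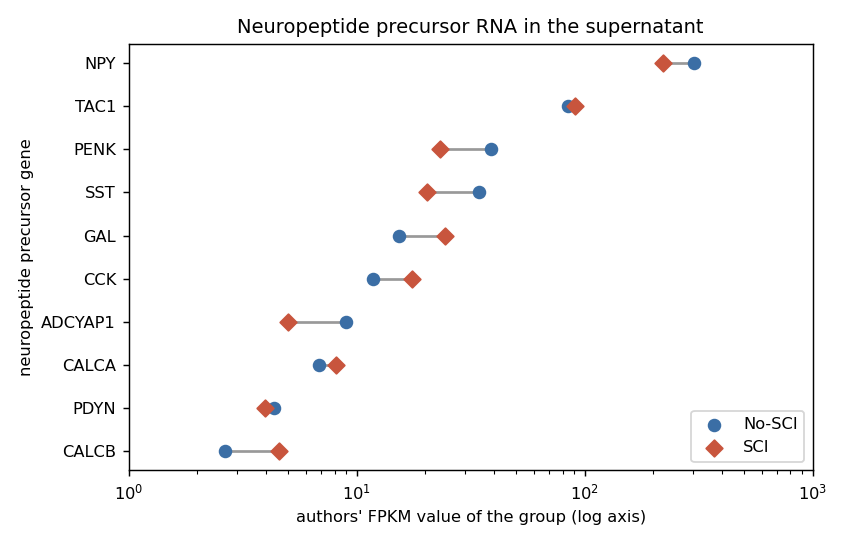
Authors' FPKM of the 10 neuropeptide precursor genes, 1 value per group (circles No-SCI, diamonds SCI, log axis), with no error bars because no value per library was given. NPY and TAC1 are the highest in both groups, and 5 genes lie to the left and 5 to the right after SCI.

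NPY, the precursor of neuropeptide Y, an inhibitory peptide of the dorsal horn that is also found in sympathetic axons, had 303 FPKM in No-SCI and 222 FPKM in SCI. It was 1.37-fold lower after SCI, a log2 ratio of −0.45. It was at percentile 94.8 of all symbols in No-SCI and at 92.6 in SCI. NPY alone made up 59.3% of the summed FPKM of the 10 genes in No-SCI and 52.8% in SCI. The sum over the 10 genes was 511 FPKM in No-SCI and 419 FPKM in SCI, and without NPY it was 208 and 198 FPKM. Most of the difference in the summed peptide RNA was thus that of NPY. None of 5 noradrenergic markers (TH, DBH, SLC6A2, SLC18A2 and PHOX2A) had an entry, which does not show that their RNA was absent. A part of sympathetic axons in the NPY values was not tested.

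The opioid precursors differed in level. PENK, the precursor of the enkephalins, had 39.0 FPKM in No-SCI and 23.2 FPKM in SCI, a log2 ratio of −0.75 or 1.68-fold lower. PDYN, the precursor of the dynorphins, had 4.36 FPKM in No-SCI and 3.97 FPKM in SCI, a log2 ratio of −0.14. PENK was 8.94 times as abundant as PDYN in No-SCI and 5.84 times in SCI. Such a ratio within a group does not depend on how the groups were scaled to each other.

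SST, the precursor of somatostatin, had 34.4 FPKM in No-SCI and 20.3 FPKM in SCI, a log2 ratio of −0.76 or 1.69-fold lower. Its ratio was close to that of PENK: PENK was 1.13 times SST in No-SCI and 1.14 times in SCI. In both groups these interneuron peptides stayed side by side at a level above the median of all symbols.

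TAC1, the precursor of substance P and neurokinin A, had 84.9 FPKM in No-SCI and 91.0 FPKM in SCI, a log2 ratio of 0.10. CALCA, the precursor of calcitonin and, by splicing, of alpha-CGRP, had 6.87 FPKM in No-SCI and 8.10 FPKM in SCI, a log2 ratio of 0.24. CALCB, the precursor of beta-CGRP, had 2.64 FPKM in No-SCI and 4.58 FPKM in SCI, a log2 ratio of 0.80 or 1.74-fold higher. CALCA and CALCB are close paralogs, so fragments could have been assigned to either, and the split between them is uncertain. CALCA was 2.60 times CALCB in No-SCI and 1.77 times in SCI. TAC1 was 12.4 times CALCA in No-SCI and 11.2 times in SCI.

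ADCYAP1, the precursor of PACAP, had the lowest ratio of the 10, with 9.01 FPKM in No-SCI and 4.97 FPKM in SCI, a log2 ratio of −0.86 or 1.81-fold lower. ADCYAP1 was lower while CALCA and CALCB were higher. What was said above of PACAP and CGRP concerns the peptides in the dorsal horn, and the source of these RNAs was not tested. CALCA was 0.762 times ADCYAP1 in No-SCI and 1.63 times in SCI, so their order turned over. CALCB and ADCYAP1 are not far above 1, the lowest value deposited, and a constant added to all values would shrink such ratios. With 1 FPKM subtracted from every value they were past 2-fold, with log2 ratios of 1.13 for CALCB and −1.01 for ADCYAP1.

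GAL, the precursor of galanin, had 15.3 FPKM in No-SCI and 24.3 FPKM in SCI, a log2 ratio of 0.67 or 1.59-fold higher. CCK, the precursor of cholecystokinin, had 11.8 FPKM in No-SCI and 17.5 FPKM in SCI, a log2 ratio of 0.57 or 1.48-fold higher. GAL moved from rank 5 to rank 3 of the 10. PENK was 2.54 times GAL in No-SCI and 0.953 times in SCI, and SST was 2.24 times GAL in No-SCI and 0.835 times in SCI.

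**Figure D2:**
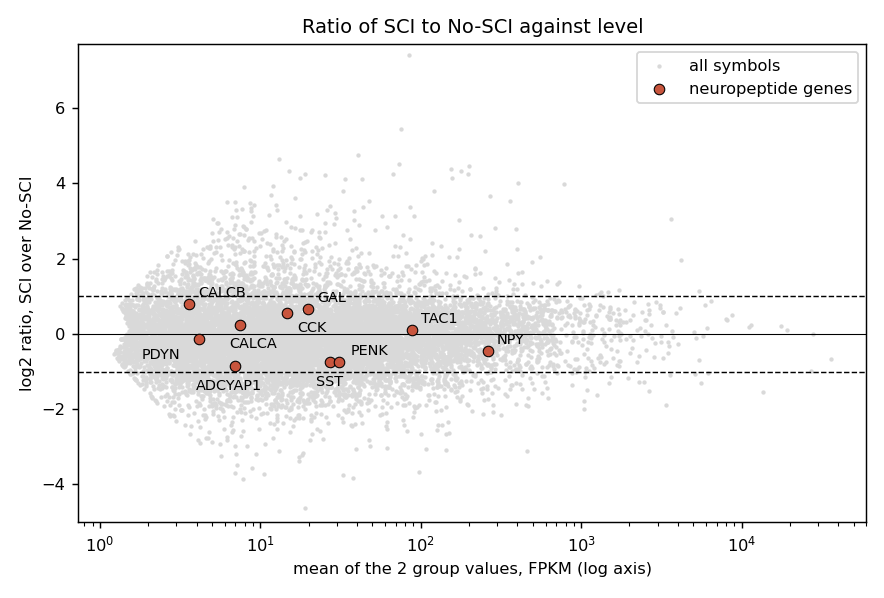
Log2 of SCI over No-SCI against the mean of the group values (FPKM, log axis) for 12758 symbols in grey and the 10 neuropeptide genes in red, with dashed lines at 2-fold. The neuropeptide genes lie inside the dashed lines, from −0.86 for ADCYAP1 to 0.80 for CALCB.

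The entries nearest to a member over the 2 log2 values were looked up, 3 for each gene. For NPY these were GLO1, BNIP3L and INO80E, and for TAC1 they were TIMM17A, SDHB and DCTN6. For SST they were WDR54, FERMT3 and PGM5, and for PENK GNG13, ORC2 and FPGT. With 2 points per gene such likeness says only that the values are close. No member was among the 3 nearest entries of another.

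Receptors of the peptides were mostly without an entry. Of 28 receptor and receptor-partner genes, 11 were in the table, with 2 at least 2-fold higher and 3 at least 2-fold lower after SCI. No receptor of the enkephalins and dynorphins (OPRM1, OPRD1 and OPRK1) and none of the 5 somatostatin receptor genes had an entry. Of the NPY receptors, NPY1R alone was present, with 3.88 FPKM in No-SCI and 3.59 FPKM in SCI.

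The receptor of CGRP is formed by the receptor protein of CALCRL and the accessory protein of RAMP1. CALCRL was lower after SCI, with 18.2 FPKM in No-SCI and 6.43 FPKM in SCI, a log2 ratio of −1.50. RAMP1 had 112 FPKM in No-SCI and 152 FPKM in SCI, a log2 ratio of 0.44. The RNAs of the partner proteins thus lay on opposite sides of equality. RAMP2 and RAMP3 turn CALCRL into receptors for adrenomedullin. RAMP2 had 60.2 FPKM in No-SCI and 148 FPKM in SCI, 2.46-fold higher, and RAMP3 had 13.3 and 22.5 FPKM, a log2 ratio of 0.76.

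The galanin receptors also differed in direction. GALR1 had 5.05 FPKM in No-SCI and 2.15 FPKM in SCI, a log2 ratio of −1.23, which came to less than 2-fold with a pseudocount of 1 FPKM. GALR2 had 17.5 FPKM in No-SCI and 43.6 FPKM in SCI, a log2 ratio of 1.32. ADCYAP1R1, the PACAP receptor PAC1, was the most strongly lower of the listed receptors, with 47.2 FPKM in No-SCI and 14.5 FPKM in SCI, a log2 ratio of −1.70. The RNAs of the PACAP precursor and of this receptor were thus both lower. VIPR1 and VIPR2, also on the list of receptor genes, had no entry. The substance P receptor TACR1 was at 1.62 FPKM in both groups, TACR3 was at 1.49 and 1.10 FPKM, and the cholecystokinin receptor CCKBR was at 2.08 and 2.24 FPKM in No-SCI and SCI, all near the lowest value in the table.

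**Figure D3:**
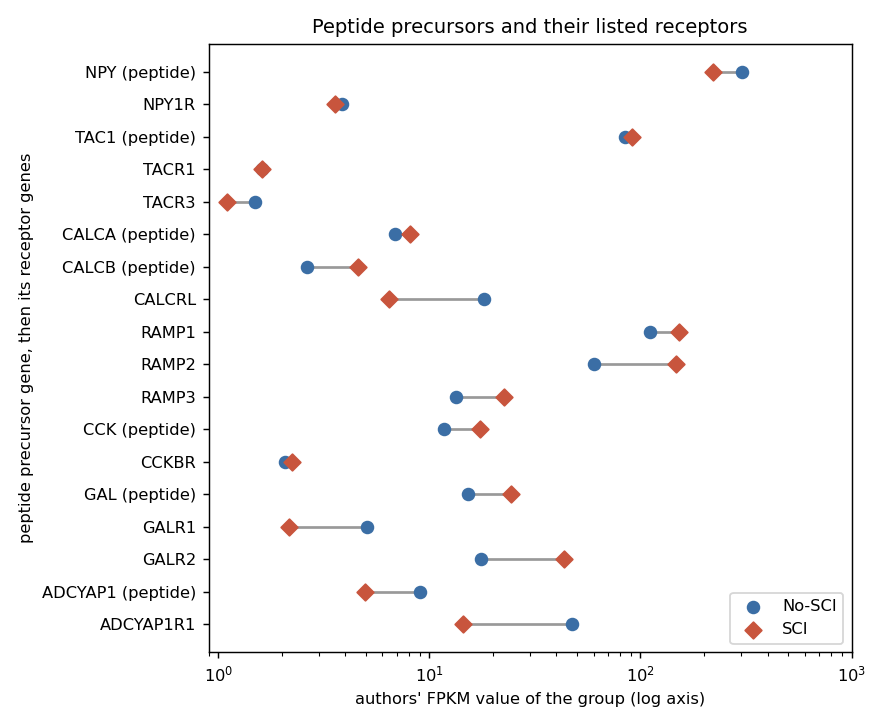
Authors' FPKM (log axis) of peptide precursor genes, each followed by its receptor genes that have an entry (circles No-SCI, diamonds SCI, 1 value per group). CALCRL, GALR1 and ADCYAP1R1 lie at least 2-fold lower and RAMP2 and GALR2 at least 2-fold higher after SCI.

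Of 21 genes for precursor processing and dense-core vesicles, 16 had an entry, 1 was at least 2-fold higher and 1 at least 2-fold lower after SCI. The prohormone convertase PCSK1 and the carboxypeptidase CPE had no entry, and the convertase PCSK2 was at 1.79 FPKM in No-SCI and 1.26 FPKM in SCI. The granin CHGB had 29.9 FPKM in No-SCI and 12.3 FPKM in SCI, a log2 ratio of −1.28. The related vesicle genes CHGA, SCG2 and SCG3 had log2 ratios of −0.88, −0.88 and −0.63, so these leaned the same way as CHGB without reaching 2-fold, while VGF, another of the granin family, had a log2 ratio of 0.37. PCSK1N, which encodes an inhibitor of the convertase PCSK1, had 2 entries. Its entry with the larger mean had 39.2 FPKM in No-SCI and 116 FPKM in SCI, a log2 ratio of 1.56. The other had 51.0 FPKM in No-SCI and 80.6 FPKM in SCI, a log2 ratio of 0.66. The order of the list in No-SCI, given next, uses the entry of PCSK1N with the larger mean and depends on that choice. The most abundant was PTPRN, a membrane protein of these vesicles, at 71.2 FPKM, with 46.4 FPKM in SCI. PAM, the amidating enzyme, followed it in No-SCI, with 61.4 and 79.6 FPKM, and SCG2 with 50.2 and 27.2 FPKM. The median log2 ratio of the 16 genes was −0.53.

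Of 50 other precursors of neuropeptides and peptide hormones, 28 had an entry, 7 of them at least 2-fold higher and 1 at least 2-fold lower. TRH, the precursor of thyrotropin-releasing hormone, had the largest ratio, with 11.7 FPKM in No-SCI and 102 FPKM in SCI, 8.71-fold higher. PNOC, the precursor of nociceptin, a relative of the opioid precursors, had 8.01 FPKM in No-SCI and 20.9 FPKM in SCI, a log2 ratio of 1.38. The other genes past 2-fold were at low levels. UTS2, NPB, ADM, NPW and EDN3 were between 1.46 and 2.15 FPKM in No-SCI, with log2 ratios of 1.87, 1.75, 1.36, 1.22 and 1.18. NTS, the precursor of neurotensin, had 3.40 FPKM in No-SCI and 1.53 FPKM in SCI, a log2 ratio of −1.15. The most abundant of the list in No-SCI were AGT with 162 FPKM, POMC with 29.0 FPKM and APLN with 23.5 FPKM, whose log2 ratios were −0.73, 0.31 and 0.20. The list median was 0.38, against −0.02 for the 10 spinal neuropeptides.

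Of 16 peptidases that trim or degrade peptides, 11 had an entry, none was at least 2-fold higher and 2 were at least 2-fold lower. Neprilysin (MME), 1 of the enzymes that degrade enkephalins, had no entry. CPM, a carboxypeptidase of the cell surface, had 13.6 FPKM in No-SCI and 5.34 FPKM in SCI, a log2 ratio of −1.35. ECE2 had a log2 ratio of −1.02, which came to less than 2-fold under each of the 3 scalings tried. The most abundant in No-SCI were NLN with 54.6 FPKM in No-SCI and 31.3 FPKM in SCI, IDE with 24.7 and 19.5 FPKM, and THOP1 with 24.2 and 18.7 FPKM.

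**Figure D4:**
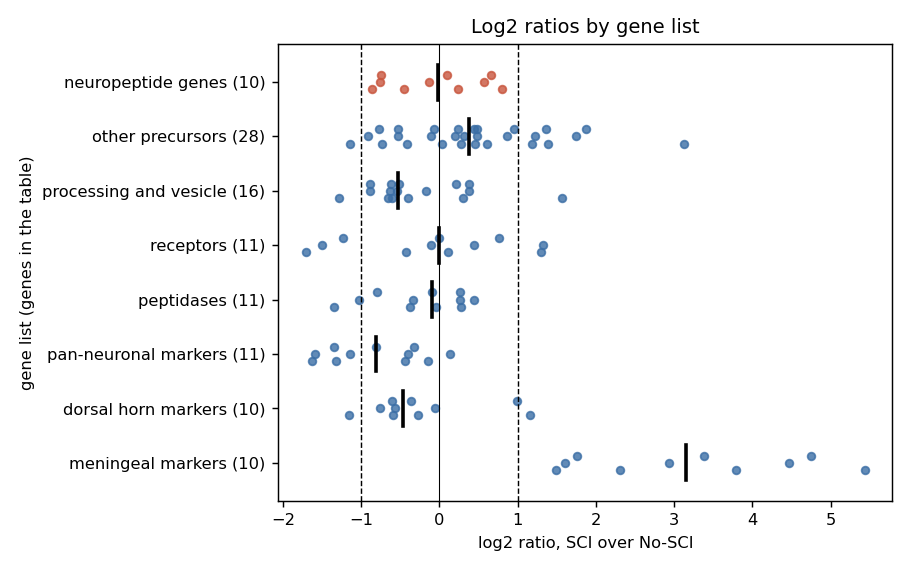
Log2 ratios of SCI to No-SCI for the listed genes of 8 lists (points, spread vertically for legibility), with the median of each list as a black bar and dashed lines at 2-fold. The 10 neuropeptide genes stay inside the dashed lines, and the meningeal markers have a median of 3.15. The lists were chosen with earlier results of these data known.

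Markers of cell types moved beside these values. Of 13 pan-neuronal markers, 11 had an entry, 5 were at least 2-fold lower after SCI and none higher, with a median log2 ratio of −0.81. Their summed level was 2497 FPKM in No-SCI and 1081 FPKM in SCI, mostly that of MAP2 (2140 FPKM in No-SCI), followed by UCHL1 (111 FPKM) and NEFL (78.1 FPKM). Of 15 dorsal horn interneuron markers, 10 had an entry, with 1 lower and 1 higher by 2-fold and a summed level of 50.7 and 38.6 FPKM, led by CALB1, CALB2 and GAD1 in No-SCI. The median log2 ratio of the dorsal horn markers was −0.46. Of 13 sensory afferent markers, 2 had an entry (PRPH and RUNX1), and the defining TRPV1, SCN10A and P2RX3 had none. RUNX1 had 14.9 FPKM in No-SCI and 43.8 FPKM in SCI, 2.93-fold higher, and PRPH had 20.3 and 22.1 FPKM, a log2 ratio of 0.12. Neither is particular to sensory afferents: the study lists RUNX1 as a motor neuron marker, and PRPH is also among the motor neuron markers used here. Of 6 motor neuron markers, PRPH and SLC18A3 had an entry, and CHAT had none.

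The marker lists were chosen with earlier results of these data known, so the counts that follow are not independent of these values. Among non-neuronal markers, whose leading genes are named by their No-SCI level, 10 of 10 meningeal fibroblast genes, led by CRABP2, DCN and LUM, were at least 2-fold higher after SCI, with a summed level of 57.7 and 882 FPKM. Skeletal muscle genes, led by TNNT3, MYL1 and ACTA1, went the other way, with 5 of 6 at least 2-fold lower and sums of 382 and 29.1 FPKM. Of the 7 oligodendrocyte markers with an entry, led by MOBP, BCAS1 and CNP, 5 were at least 2-fold lower, with sums of 82641 and 46745 FPKM. Of 4 astrocyte markers with an entry (APOE, GJA1, SLC1A2 and ALDH1L1) 3 were at least 2-fold lower, and GFAP and AQP4 had none. Of 10 microglia and macrophage markers, led by AIF1, FCER1G and TYROBP, 1 was higher and 3 lower by 2-fold, and of 6 blood markers with an entry, led by HBB, LCN2 and S100A8, 2 were higher and 1 lower by 2-fold. Of the 6 oligodendrocyte precursor markers, led by OLIG1, SOX10 and PDGFRA, 1 was lower, of the 5 endothelial markers with an entry, led by CLDN5, CDH5 and FLT1, 1 was higher, and of the 6 mural markers, led by TAGLN, RGS5 and MYH11, none was past 2-fold. The part of any of these cell types in the neuropeptide values was not tested.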

How the data were processed

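Stranded total RNA libraries of the supernatant were made after removal of ribosomal RNA. The authors downsampled every library to the smallest, aligned the reads to rn6 with STAR 2.5.4b (submitters' processing notes) and estimated with Cuffdiff 1.3.0, with upper quartile normalization, the deposited FPKM, 1 value per group. The file also holds the authors' p-values, q-values and fold changes of SCI against No-SCI, which were not used. Of 12771 entries, 13 symbols were listed 2 times, and the entry with the larger mean was taken. No value was below 1. Values of 4 of the 10 genes carried more than 6 significant digits in a group, as did 58.6% of entries, and may be sums over transcripts or entries. Per-sample columns left out numbered 0.

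The members, gene lists and 2-fold minimum were chosen with earlier results of these data known. Genes were named by rule: all members, listed pathway genes past 2-fold (the 8 largest at most), the 3 most abundant of each list and the 3 entries nearest to each member. Genes without an entry, SCG3, CHGA, VGF, PCSK2 and receptors within 2-fold were named beyond the rule, after their values were seen. Some marker genes are not reported here and were left out of their lists. Python 3.11.15, numpy 2.4.6, pandas 2.3.3 and matplotlib 3.10.9 were used, and counting and scaling were tested on simulated data.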

Additional observations from a re-analysis of the deposited data

How the results depend on the processing

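Each of the 3 scalings moved all log2 ratios upward, by 0.12 at most, so the higher genes could not change direction. The lower genes all lay further below 0 than this shift and so kept theirs. PDYN came closest, at −0.02 after centring. Under these scalings and pseudocounts of 1 and 0.1 FPKM the ratios of the 10 neuropeptide genes stayed within 2-fold. Each gene had 1 entry, so the rules for repeated symbols could not change its ratio. Filters on low values change no ratio, but a mean of at least 10 FPKM left out PDYN, CALCA, CALCB and ADCYAP1. Subtracting 1 FPKM gave 1.13 for CALCB and −1.01 for ADCYAP1 and so 1 gene past 2-fold in each direction. A 1.3-fold minimum gave 3 higher and 4 lower. The median of the 10 genes, −0.02, became 0.10 with the median of all symbols centred at 0, 0.086 with equal upper quartiles and 0.027 with equal totals. Over all symbols, counts higher and lower were 3142 and 4559 at 1.3-fold, 215 and 154 at 4-fold, and 557 and 912 for means of at least 10 FPKM.

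Only the larger changes in count are given for the lists that follow. Among the other precursors, the 7 higher became 14 at 1.3-fold, 1 at 4-fold and 2 for means of at least 10 FPKM, and the 1 lower became 7 at 1.3-fold, 3 after subtraction, and 0 at 4-fold, with a pseudocount of 1 or for means of at least 10 FPKM. Smaller changes also occurred: NPW and EDN3, for example, came to less than 2-fold with a pseudocount of 1. Among processing and vesicle genes, the 1 higher became 0 at 4-fold or with the entry of PCSK1N of smaller mean. The 1 lower became 10 at 1.3-fold, 3 after subtraction and 0 at 4-fold. Receptors came to 4 higher at 1.3-fold, and 0 higher and 0 lower at 4-fold, and their median of 0.0008 became −0.10 as a mean. GALR1, 1 of the lower receptors, came to less than 2-fold with a pseudocount of 1 and was left out for means of at least 10 FPKM. Peptidases came to 1 higher at 1.3-fold, and the 2 lower became 1 with either pseudocount or any of the 3 scalings, and 0 at 4-fold or for means of at least 10 FPKM. The median of the peptidases became 0.022 by centring and 0.0084 by upper quartile.

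No paired analysis was possible because the table gives 1 value per group and the groups share no replicate number, and leave-one-out values were not made for the same reason. Without counts, the depth behind a low value such as that of CALCB or PDYN is unknown.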
